A study of Mus musculus with 8 samples.

Results

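Mn1, Nr2f2, Pou3f3, Pcdh7 and Skida1 are 5 mouse genes named for windows of the genome that hold some of the longest stretches of trimethylated lysine 4 of histone H3 (H3K4me3) in the embryonic brain. The windows were fixed on mouse build mm9: chr5:111838000-111860000 for Mn1, chr7:77490000-77518000 for Nr2f2, chr1:42735000-42765000 for Pou3f3, chr5:58100000-58118000 for Pcdh7 and chr2:17960000-17976000 for Skida1. They were given as lying under the broadest H3K4me3 domains, so the great width of their regions is a description and not a result. The widest region of each ranked 3rd, 5th, 4th, 10th and 7th in that order by mean base pairs under peaks over all libraries. Peaks of the 4 H3K4me3 lists were merged where they shared 1 bp or more, giving 19714 regions. Of these, 29 lay in the windows: 4 at Mn1, 12 at Nr2f2, 7 at Pou3f3, 1 at Pcdh7 and 5 at Skida1. A peak in all 4 libraries was present in 17 of the 29, and in 14943 regions of the whole genome. The widest of these in each window is called its domain below. A domain carries the name of its window and was not placed against the gene, and that of Pou3f3 in particular may lie beside the gene, over a noncoding neighbour. The narrowest of the 5 domains, at Pcdh7, had a mean of 6526.75 bp, and the region ranked next below it, on chromosome 13 from 83874250 to 83881309, had 6446.25 bp.

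The study mapped the mark by chromatin immunoprecipitation and sequencing in brains of mouse embryos at stage E12.5, on a mixed strain background, in 2 groups of 2 libraries. The wild type (WT) group came from controls without Cre. The group labelled Lats1/2;Nestin-Cre dKO, here dKO, lacked Lats1 and Lats2, the Hippo pathway kinases that hold back the coactivators YAP and TAZ, in cells reached by Nestin-Cre, which acts in progenitors of the nervous system. Cells outside that lineage kept both genes, and the controls had no Cre, so that Cre itself and the deletion cannot be told apart. Brains were handled singly per the labels' protocol, but no label names the animal behind a library, and p-values therefore measure the spread between these libraries. The lists held 17367 to 19486 peaks. The dKO lists were the shorter ones, and dKO replicate 2 had the fewest peaks and the lowest median score (230, against 312 to 338.5 in the others). Read depth was unknown, peak number and width move with depth and background at a fixed threshold, and in whole brain fewer cells with a mark cannot be told apart from less mark per cell. No mm9 gene annotation was used, so the gene names are those given with the windows, no peak was assigned to an exon or promoter, and neither brain marker genes nor the peaks at Lats1 and Lats2 were examined.

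H3K4me3 is laid down by the SET1 and MLL complexes around active gene starts, above all at CpG-rich ones. Most genes carry a short block of it, while a minority carry blocks that run for several kilobases, and such broad domains are known from genes that set cell identity. Pou3f3 (BRN1) is a POU-homeodomain transcription factor of neural progenitors and upper-layer cortical neurons. Nr2f2 (COUP-TFII) is an orphan nuclear receptor of the caudal and ventral forebrain, of migrating interneurons and of vascular and mesenchymal cells. Mn1 is a transcriptional coregulator needed for the development of the palate and the skull. Skida1 encodes a nuclear protein with a SKI/DACH-type domain whose role is little studied. Pcdh7 is a protocadherin, a cell adhesion protein of the cell surface, and is thus not a transcription factor like the first 2.

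A promoter of 300 bases, from 250 before to 50 after the annotated start, was found by symbol for 3 of the 5 genes in RefSeq's table of build GRCm38.p6. They are shown because H3K4me3 favours CpG-rich starts, with capitals marking CpG dinucleotides. Since the builds differ, no base of them was set against a peak.
Pou3f3: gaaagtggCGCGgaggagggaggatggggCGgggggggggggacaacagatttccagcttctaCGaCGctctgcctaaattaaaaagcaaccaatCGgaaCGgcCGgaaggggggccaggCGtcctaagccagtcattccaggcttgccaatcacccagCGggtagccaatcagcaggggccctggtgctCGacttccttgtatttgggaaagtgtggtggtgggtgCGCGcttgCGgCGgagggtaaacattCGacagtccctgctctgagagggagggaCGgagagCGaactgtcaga
Pcdh7: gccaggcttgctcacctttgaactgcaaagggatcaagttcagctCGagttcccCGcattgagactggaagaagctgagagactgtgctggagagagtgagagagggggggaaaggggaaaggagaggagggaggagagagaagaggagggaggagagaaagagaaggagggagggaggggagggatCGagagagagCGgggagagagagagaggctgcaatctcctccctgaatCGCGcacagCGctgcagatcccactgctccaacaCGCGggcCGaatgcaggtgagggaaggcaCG
Nr2f2: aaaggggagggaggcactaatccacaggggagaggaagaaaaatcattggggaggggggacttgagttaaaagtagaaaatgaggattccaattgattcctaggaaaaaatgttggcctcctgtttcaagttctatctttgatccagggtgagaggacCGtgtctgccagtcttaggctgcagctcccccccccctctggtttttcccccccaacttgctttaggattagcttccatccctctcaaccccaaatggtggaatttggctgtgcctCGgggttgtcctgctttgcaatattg

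The Pou3f3 start (GRCm38.p6, chr1:42695518-42695817, plus strand) held 18 CpGs, and 29.7% of the 32851 promoters in the table held as many or more. The Pcdh7 start (chr5:57717831-57718130, plus strand) held 11 CpGs, a count reached by 41.4% of promoters. The Nr2f2 start in the table (chr7:70366697-70366996, minus strand) held only 2, fewer than the table's median of 7, and Nr2f2 has several annotated transcripts of which this is 1 start. GGAATG, the core recognised by the TEAD factors through which YAP and TAZ act, was searched on both strands. It matched once at Pou3f3, on the strand opposite to the gene, with the first base of the match 116 bases before the start, and did not occur in the other 2 windows of sequence. Among all promoters 14.7% hold it, and a match is a description of letters only. In the gene order of GRCm38.p6, Pou3f3 lies among noncoding RNA genes, with Gm46091 overlapping it, Pantr1 before it and 2900092D14Rik and Pantr2 after it. Nr2f2 overlaps the noncoding B130024G19Rik, Pcdh7 overlaps the noncoding 4932441J04Rik, and the next protein-coding gene after Skida1 is Mllt10. Whether a domain spans more than 1 transcription unit was not tested.

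**Figure D1:**
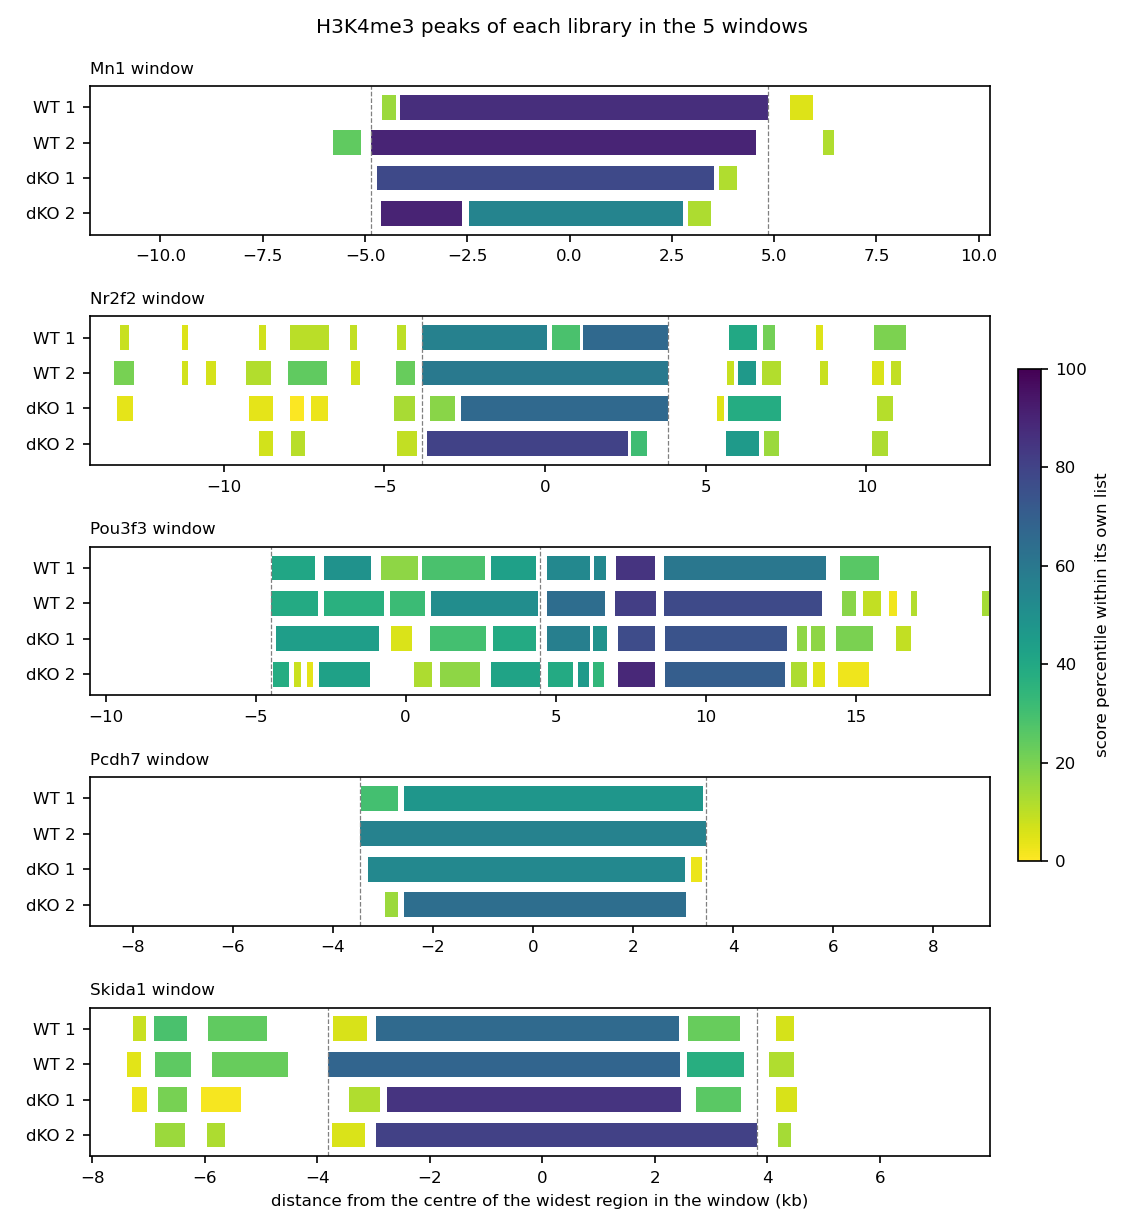
H3K4me3 peaks of each library (rows) in the 5 windows, with position as the distance in kb from the centre of the domain and colour as the percentile of the peak's score within its own list. Dashed lines mark the ends of the domain; Mn1 and Pcdh7 show nearly unbroken blocks, while Pou3f3 and Nr2f2 show chains of many peaks in every library.

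The windows carried less sequence under peaks in dKO than in WT on average, as did the lists as a whole. The lists held 20.3 and 21.4 Mb under peaks in WT replicates 1 and 2, and 19.3 and 17.3 Mb in dKO replicates 1 and 2. At Mn1 the peaks covered 9868 and 10361 bp in WT replicates 1 and 2, and 8675 and 7770 bp in dKO replicates 1 and 2. Both dKO values were below both WT values, with means of 10114.5 ± 349 bp and 8222.5 ± 640 bp (SD, n = 2 each), or 18.7% lower in dKO, the largest relative difference of the 5 windows. Part of it lay in 3 regions outside the domain, each with a peak in 1 WT library only. The Mn1 domain itself had means of 9364 bp in WT and 8222.5 bp in dKO. At Pou3f3 the values were 17651 and 18561 bp in WT, against 17170 and 15084 bp in dKO, 10.9% lower on average, without overlap between the groups. At Skida1 they were 9101 and 9937 bp in WT, against 8416 and 8462 bp in dKO, 11.3% lower, again without overlap, and the dKO libraries differed by 46 bp only.

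At Pcdh7 the peaks covered 6720 and 6919 bp in WT, against 6572 and 5896 bp in dKO, 8.59% lower and also without overlap. At Nr2f2 the values of 12353 and 13944 bp in WT, against 12396 and 10198 bp in dKO overlapped, since dKO replicate 1 exceeded WT replicate 1 by a few bases (means 14.1% apart). The groups were thus separate in 4 of 5 windows, always with dKO lower. Among all regions with a peak in all 4 libraries, 39.1% had both dKO widths below both WT widths, and 4.17% had both above. With 2 libraries against 2, an exact two-sided permutation test cannot give a p below 0.3333; it gave 0.3333 in these 4 windows and 0.6667 at Nr2f2.

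Dividing each window's base pairs by the library's median region width left a single separate window, Mn1, at 8.50 and 8.48 median widths in WT against 7.69 and 7.52 in dKO. The 5 windows together held 0.275% and 0.279% of all base pairs under peaks in WT replicates 1 and 2, and 0.275% and 0.274% in dKO replicates 1 and 2. The summed share of the 5 windows thus differed between lists by less than 0.01 percentage points. A sum over 5 windows can hide a difference in a single window, such as that at Mn1. Much of the absolute difference came with dKO replicate 2. Without that library the difference went from -1851.5 to -752.5 bp at Nr2f2, from -1979 to -936 bp at Pou3f3 and from -585.5 to -247.5 bp at Pcdh7, while it was -1439.5 bp at Mn1 (-1892 with it) and -1103 bp at Skida1 (-1080 with it). Without dKO replicate 1 it was -3022 bp at Pou3f3, -2950.5 bp at Nr2f2 and -923.5 bp at Pcdh7, and without WT replicate 2 it was -1056 bp at Nr2f2 and -662 bp at Skida1.

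**Figure D2:**
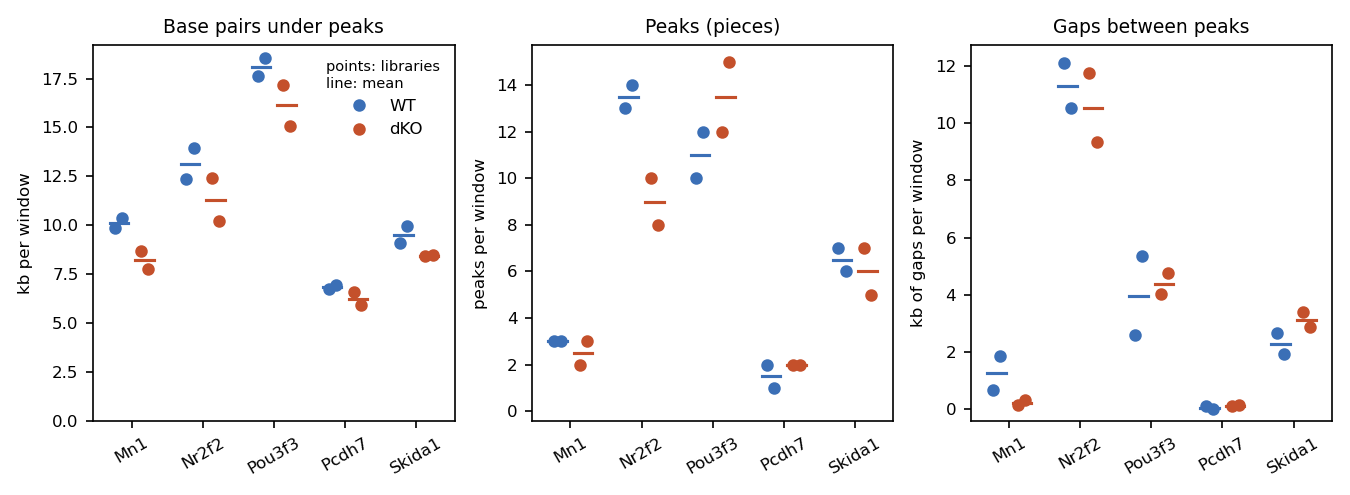
Values of each library (points) and group means (lines) in the 5 windows: kb under peaks, number of peaks, and kb of gaps between the peaks, WT in blue and dKO in orange. The dKO points lie below the WT points for kb under peaks in every window but Nr2f2, while peak numbers overlap in every window but Nr2f2.

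No window had more peaks in both dKO libraries than in both WT libraries. The 5 windows held 35 and 36 peaks in WT and 33 in each dKO library. At Nr2f2 there were 13 and 14 peaks in WT, against 10 and 8 in dKO, the only window where the groups did not overlap. Some of the additional WT peaks were short shoulders. Regions of 205, 290 and 382 bp, from 77492854, 77498100 and 77512581, had a peak in WT replicates 1 and 2 and none in either dKO list. Their peaks measured 200 to 280 bp. Their scores of 38 to 52 were at or above only 5.3% to 9.3% of the peaks in their own lists. A site without a called peak is not thereby free of the mark. No region in any of the 5 windows showed the reverse pattern. Of the 19714 regions over the genome, 755 had peaks only in both WT libraries and 27 only in both dKO libraries, against 3 and 0 of the 29 regions in the windows. The reverse pattern was so rare over the genome that its absence from 29 regions says nothing about the windows. With peaks under 500 bp left out, the Nr2f2 counts were 6 and 7 in WT, against 7 and 3 in dKO, so that the groups overlapped.

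At Pou3f3 the opposite order was seen for the means, with 10 and 12 peaks in WT, against 12 and 15 in dKO, and the groups met at 12. Mn1 had 3 peaks in each WT library and 2 and 3 in dKO. Pcdh7 had 2 and 1 in WT and 2 in each dKO library, and Skida1 had 7 and 6 in WT, against 7 and 5 in dKO. Gaps of under 200 bp between neighbouring peaks numbered 10 and 3 in WT, against 8 and 11 in dKO over the 5 windows, fewest in WT replicate 2. Counting peaks within 200 bp as 1 left 1 piece at Pcdh7 in every library and 1 piece at Mn1 in both dKO libraries, against 2 and 3 there in WT. Over the 14943 regions, 1.4% had more pieces in both dKO libraries than in both WT libraries and 0.542% had fewer; among the 3001 regions called in several pieces in at least 1 library the shares were 6.96% and 2.7%, and among the 100 widest regions 10% had more. These shares are for regions and not for windows of this length.

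The gaps differed from window to window. They count only the space between the outermost peaks of a library in the window, so they also depend on which outer peaks were called. No share over all regions was worked out for gaps. At Skida1 the gaps summed to 2648 and 1928 bp in WT, against 3398 and 2858 bp in dKO, higher in dKO without overlap. At Mn1 they summed to 670 and 1875 bp in WT, against 128 and 305 bp in dKO, the reverse order. The higher WT sums at Mn1 came from outside the domain. There WT replicate 1 had a peak of 550 bp after it and WT replicate 2 had peaks of 675 bp before it and 276 bp after it. These 3 peaks stood at different places, each in 1 library only. Inside the Mn1 domain the gaps were higher in dKO. WT replicate 2 had 1 unbroken peak there, and the only gap of WT replicate 1, between 111845468 and 111845588, was shorter than those of dKO, 128 and 305 bp. Pcdh7 was almost without gaps, with 112 and 0 bp in WT, against 115 and 127 bp in dKO. At Nr2f2 the gaps came to 12112 and 10523 bp in WT, against 11739 and 9358 bp in dKO, and at Pou3f3 to 2576 and 5346 bp in WT, against 4012 and 4772 bp in dKO, with overlap in both. In the Pou3f3 window 4 short gaps were open in all 4 libraries, of 230, 290, 263 and 348 bp, starting at 42749992, 42752226, 42753868 and 42759525. They divided the mark there into 5 regions at the same places in both genotypes.

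Within the domains, the outer edges were compared next. The Mn1 domain (chr5:111844877-111854569) began at 111845133 and 111844877 in WT and at 111845021 and 111845103 in dKO, which overlapped. It ended at 111854569 and 111854286 in WT and at 111853823 and 111853177 in dKO, so that its right end was shifted by -927.5 bp on average, towards the inside and with no overlap. A stretch of 463 bp from 111853824 to 111854286 was under a peak in each WT library but in no dKO library. At Pcdh7 (chr5:58105402-58112320) both ends lay inside the WT ends in dKO, with mean shifts of 319.5 bp on the left and -201 bp on the right. The Nr2f2 domain (chr7:77500316-77507996) started 215 bp further in on average in dKO, at 77500591 and 77500486 against 77500316 and 77500331, while its right ends overlapped. The Pou3f3 domain (chr1:42741047-42749991) started 92 bp further in, and the Skida1 ends (chr2:17964228-17971854) overlapped on both sides. The left edge was thus inside in 3 of 5 domains and the right edge in 2 of 5. Among all regions in 4 libraries these shares were 32.3% and 33%, and among the 100 widest regions 36% and 41%.

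For the width of the domains, the values by library were 9318, 9410, 8675 and 7770 bp at Mn1, in the order WT replicates 1 and 2, dKO replicates 1 and 2. In the same order they were 7800, 8255, 7452 and 6279 bp at Pou3f3 and 7404, 7666, 7215 and 6724 bp at Nr2f2. At Pcdh7 the domain is the whole mark of the window and has the values given above. The Skida1 domain covered 6918 and 7258 bp in WT, against 6557 and 7355 bp in dKO, and its widest value was that of dKO replicate 2, the library lowest in the other 4 domains. Its peak in that library ran without a break from 17965081 to 17971854, across a place where each of the other libraries had a gap. Both dKO values were below both WT values in 4 of 5 domains before scaling, against 46% of the 100 widest regions (7% had both above) and the 39.1% of all regions given above. The members were proposed with the values of these libraries known, so that count supports nothing by itself.

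Centring each library on its median region width removed a shift of -0.14 on the log2 scale between the groups. After it, both dKO values were below both WT values at Mn1 and Pou3f3, above them at Nr2f2, and overlapping at Skida1 and Pcdh7; over all regions 16.3% were below and 23.7% above, and of the 100 widest 12% were below. In limma, fitted to the centred widths of all 14943 regions, the difference between dKO and WT on the log2 scale was -0.048 (SE 0.078) at Mn1 and -0.088 (SE 0.080) at Pou3f3. It was 0.029 (SE 0.073) at Nr2f2, 0.11 (SE 0.11) at Skida1 and 0.011 (SE 0.072) at Pcdh7. No domain passed the threshold of 0.05, with limma's Benjamini-Hochberg adjusted p from 0.803 to 0.975, and 0 of the 5 had an unadjusted p under 0.05. Over all regions 0% were called narrower and 0.00669% wider. Without centring all 5 differences were negative, from -0.029 at Skida1 to -0.23 at Pou3f3, and none passed, so the direction at Nr2f2, Pcdh7 and Skida1 depends on the scaling.

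**Figure D3:**
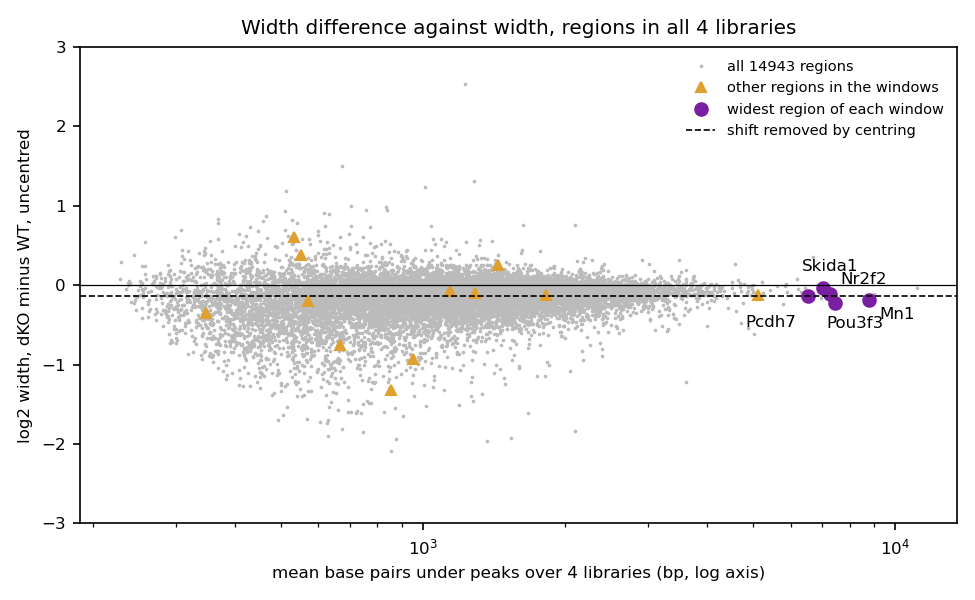
Log2 width in dKO minus WT, before centring, against mean width in bp on a log axis, for the 14943 regions marked in all 4 libraries. The 5 domains (purple circles) lie between -0.23 and -0.029, near the dashed line at -0.14 that marks the shift removed by centring, and the other regions of the same windows (orange triangles) scatter more widely.

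Some of the smaller regions beside the domains varied more than the domains did, and others did not. The widest library's base pairs over those of the narrowest ran from 1.12 to 1.31 in the domains. In the 12 other regions with a peak in all 4 libraries this ratio ran from 1.09 to 4.21. Its median was 1.27 over all regions and 1.13 for the 100 widest, so lower ratios were not particular to these domains. Of the 12 other regions with a peak in all 4 libraries in the windows, 4 had an unadjusted p under 0.05 in limma, 3 narrower and 1 wider in dKO, and none passed adjustment (lowest adjusted p = 0.419). Over all regions 7.67% had an unadjusted p under 0.05. The wider one, beside Nr2f2 from 77509794 to 77511487, covered 1274 and 1351 bp in WT, against 1640 and 1499 bp in dKO, so the dKO values were higher even before centring. It was a pair of peaks in WT replicate 1 and dKO replicate 2, 3 peaks in WT replicate 2 and 1 unbroken peak in dKO replicate 1. The narrower ones included the left shoulder of Skida1 from 17961978 to 17963516, with 1045 and 1346 bp in WT, against 707 and 320 bp in dKO (log2 difference -1.18, SE 0.33, limma adjusted p = 0.532). They also included the regions at Nr2f2 from 77496160 to 77497433, with 1216 and 1215 bp in WT, against 938 and 434 bp in dKO, and from 77514330 to 77515388, with 1013 and 671 bp against 499 and 482 bp. The best scores of these 3 narrower regions were at or above 9.3% to 24.6% of the peaks in the WT lists. In the dKO lists they were at or above only 1.5% to 12.2%. How far width varies at such low scores was not tested. The Skida1 shoulder held a stretch of 458 bp, from 17962685 to 17963142, covered in each WT library but in no dKO library.

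The Pou3f3 window held a further broad region, from 42754131 to 42759524, which ranked 27th of all by mean width. It covered 5394 and 5271 bp in WT, where it was a continuous peak, and 4872 and 4948 bp in dKO, where each library broke it into 3 peaks. Of the 17 regions it alone had more pieces in both dKO libraries than in both WT libraries. The same held for 10% of the 100 widest regions and for 6.96% of the 3001 regions called in several pieces in some library. The breaks of this Pou3f3 region left 116 bp from 42758238 and 129 bp from 42758914 covered in each WT library but in no dKO library. Its main peak was thereby shorter, at 5394 and 5271 bp in WT, against 4078 and 4006 bp in dKO, while the base pairs covered differed by less than the scaling shift of -0.14 (uncentred log2 difference -0.12, centred 0.023, limma adjusted p = 0.954).

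Base by base, the windows resembled the lists from which they came. Of the 64438 bases under a peak in any library in the windows, 65.9% were under a peak in all 4 libraries, against 66.6% over all peaks of the series. Both WT libraries and no dKO library covered 4.86% of them (4.24% in the series), and both dKO libraries and no WT library covered 0.549% (0.429% in the series). Bases missing from dKO replicate 2 alone made up 8.90% (6.62% in the series), the largest such share for any library. The share covered in all 4 libraries was highest at Pcdh7, at 84.8%, and lowest at Nr2f2, at 55.0%.

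The 5 domains stood at different places in the order of scores. The score is the authors' own value for each peak, on a scale that is not named, and was ranked only within its own list, as the percent of peaks in the list with a score at or below it. The best score of the Mn1 domain stood at percentile 86.8 and 90.1 in the WT lists, and at 77.8 and 90.6 in those of dKO, the highest of the 5 in all lists but that of dKO replicate 1. Skida1 stood at 65.9 and 67.8 in WT, against 85.0 and 80.8 in dKO, and Nr2f2 at 66.2 and 59.4 in WT, against 66.4 and 80.3 in dKO. Pcdh7 lay near the middle of the lists, at 47.4, 56.0, 53.5 and 64.1 in the same order of libraries. The widest region of the Pou3f3 window lay there too, at 49.0, 51.4, 44.5 and 42.8. The lists differ in length and in score range, so these percentiles do not measure a change between genotypes.

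The best score of the Pou3f3 window did not belong to its widest region but to a short one, from 42752516 to 42753867. It covered 1307 and 1352 bp in WT, against 1257 and 1237 bp in dKO, and its score stood at percentile 84.8, 81.9, 77.1 and 89.0. Width and score thus named different parts of this window in every library. In the Mn1 window of dKO replicate 2, the widest peak (5227 bp, score percentile 54.9) was likewise not the one with the best score, which lay at the left end of the domain in a peak of 1992 bp. For comparison, the median best-score percentile of the 100 widest regions was 82.5 and 82.3 in WT, against 82.6 and 80.8 in dKO.

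**Figure D4:**
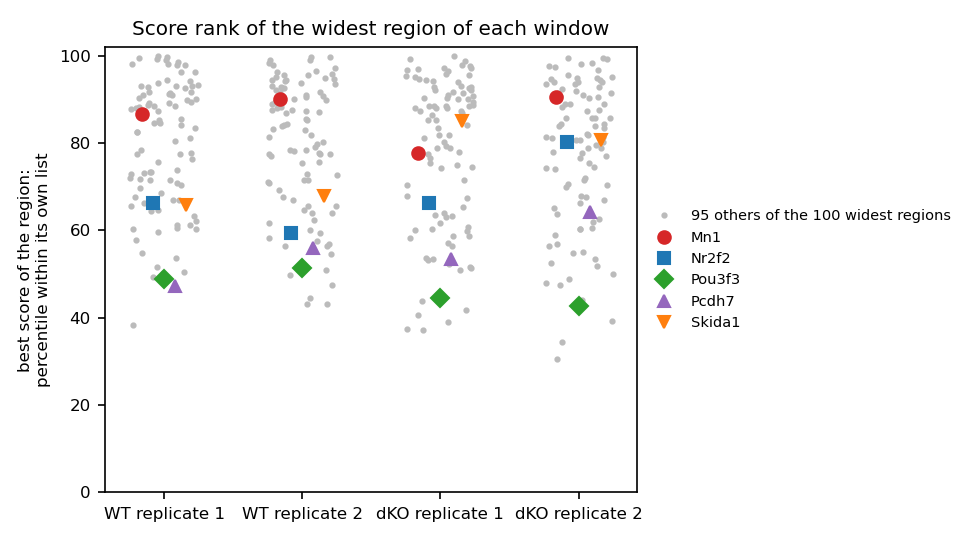
Percentile of the best score of each domain within its own peak list, by library, with the 95 others of the 100 widest regions as grey points. Mn1 lies between 77.8 and 90.6, while Pou3f3 lies between 42.8 and 51.4, near the lower end of the grey points in every library.

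The regions most alike in width were the other 5 of the 10 widest: chr7:86643765-86655114, chr13:83857030-83866809, chr13:83866946-83874131, chr3:17689125-17696666 and chr8:11001977-11010173. Those on chromosome 13 are neighbours, as the first ends at 83866809 and the next begins at 83866946. The region ranked next below Pcdh7 follows them from 83874250, so these are not separate places in the genome. The uncentred log2 differences of the other 5 regions ran from -0.16 on chromosome 3 to 0.35 on chromosome 8, and those of the 5 domains from -0.23 to -0.029. Both dKO widths were below both WT widths in 2 of these 5 and above them in 1, against 4 and 0 of the domains. No test was made between the sets, since both were chosen on width and the domains were picked with these differences known. The median uncentred log2 difference was -0.13 for the 5 domains, -0.079 for the 95 others of the 100 widest regions and -0.12 for all regions in 4 libraries.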

How the data were processed

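Per the submitters' processing notes, MACS2 2.1.1.20160309, BWA 0.7.12-r1039, bedtools, Picard 2.6.0, R 2.14.0 and SAMtools were used with build mm9; their roles, thresholds and the use of input chromatin are not given in the sources used here. The authors deposited 1 peak list per H3K4me3 library, with positions in bp and a score on an unnamed scale whose lowest value was 13. The 4 input libraries were not analysed here. Depth is unknown, so no interval for depth was attached.

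Peaks were clipped to the windows, and summed, counted and ranked per library with Python 3.11.15, pandas 2.3.3 and scipy 1.17.1; starts are counted from 1. Group differences in window totals used an exact two-sided permutation test. Log2 base pairs per region, centred on each library's median, were fitted with limma 3.58.1 (R 4.3.3, variance trend, Benjamini-Hochberg adjustment) and checked on simulated data. All 5 genes are described, and the regions alike are the rest of the 10 widest. Members, windows and lists were chosen with earlier results of these data known. Alternatives were other scalings, no variance trend, the replicate number as a block, merged, shortened or filtered lists, regions of 2 or more libraries after adding 100 bp, and each library left out with region boundaries kept.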

Additional observations from a re-analysis of the deposited data

How the results depend on the processing

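No domain was called by limma under any of the 12 alternatives run (adjusted p from 0.174 to 1). Of 60 alternative values for the 5 domains' centred width differences, 13 changed sign. All 5 differences in the report lay within 0.12 of 0, and at Mn1 the difference was 0 with quantile normalization. Without centring the difference was -0.11 at Nr2f2, -0.13 at Pcdh7 and -0.029 at Skida1; with quantile normalization it was -0.064 at Nr2f2 and -0.082 at Pcdh7. With peaks within 1000 bp merged it was 0.073 at Pou3f3 and -0.062 at Skida1, where the merged region took in neighbouring peaks. With lists of equal length it was -0.025 at Pcdh7, and with peaks under 500 bp left out -0.034 at Nr2f2 and -0.057 at Pcdh7. With a library left out, Mn1 ranged from -0.078 (without WT replicate 2) to -0.018 (without WT replicate 1), Pou3f3 from -0.15 (without dKO replicate 1) to -0.028 (without dKO replicate 2), Pcdh7 from -0.0054 to 0.026, Nr2f2 from 0.016 to 0.041 and Skida1 from -0.033 to 0.26, where a lone library is assumed to vary like the other pair. The labels link the same-numbered libraries by number alone, and whether they share more is not known (correlation of their deviations -0.0587 over 14943 regions). With the replicate block 0 domains were called, and 1 region of all as without it.

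The 4 windows with less sequence in both dKO libraries became 1 after division by the library median width, 2 with the widest peak only and 3 with lists of equal length, and 4 to 5 when 1 library was left out, where fewer values must separate. Relative to the median width, the Pcdh7 difference was 0.042 median widths, the Nr2f2 difference was -647.5 bp with lists of equal length and -3413.5 bp with peaks merged, and for the widest peak only it was 558 bp at Nr2f2 and 178 bp at Skida1; the cause was not tested. Windows with more peaks in both dKO libraries numbered 0, and 0 to 1 with a library left out. Scores were ranked in 1 way only. Without read depth, no base pair difference here can be set against counting error.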
